A study of Bos taurus with 2 samples.

Results

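The genes described here are those that encode the proteins of the cytosolic ribosome. They were taken from the feature list by name: every gene called RPS or RPL followed by a number and at most 1 of the letters A, X, Y or L, with or without a number after it, the stalk genes RPLP0, RPLP1 and RPLP2, and RPSA. The rule found 89 genes under 78 symbols, of 21867 features, and it left out the RPS6K kinases, the binding protein gene RPS19BP1 and RPL36AL, a ribosomal protein gene with 2 letters after its number. The 89 genes gave 73165599 of 283449867 unique molecular identifiers (UMIs, each of which marks a captured RNA molecule), or 25.8%. Of the 89 genes, 84 had at least 1 UMI, and 78 had at least 20 UMIs in each of the 15 clusters of cells. The other 5 had no UMI: RPL10L, a testis-type copy of RPL10, and 4 of the 6 genes that carry the symbol RPL39.

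A ribosome joins a small subunit, which reads the messenger RNA, to a large subunit, which makes the peptide bonds, and each subunit is ribosomal RNA held together by many proteins. The proteins named RPS belong to the small subunit, those named RPL to the large one, and RPLP0, RPLP1 and RPLP2 form the stalk of the large subunit that recruits translation factors. Since a ribosome needs its proteins in fixed proportions, their messenger RNAs are among the most abundant in growing cells and are usually made together, and some of the proteins have a paralogue that can stand in for them or that works elsewhere.

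The cells were satellite cells, the muscle progenitors, isolated from the skeletal muscle of 1 male Holstein calf aged 2 weeks and cultured for 1 week in DMEM with 10% fetal bovine serum. There was no treatment, and 2 libraries, replicates 1 and 2, were prepared from the same cells with the 10x Genomics droplet method. All 19096 cells fall into the 15 clusters drawn by the authors, and the comparisons below are between clusters. Each p-value therefore measures only how far library preparations of the same cells differed, and how far animals differ cannot be seen here.

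Replicate 1 held 9939 cells with a median of 14626 UMIs, and replicate 2 held 9157 cells with a median of 15206. There were 27 cell barcodes present in both libraries. The summed level of the satellite cell markers PAX7 and PAX3 was at most 0.0382 UMIs per 10000 in any cluster, while the myoblast markers MYF5, MYOD1 and DES summed to between 1.59 and 26.8. The markers of glia had no UMI in any cluster, and those of immune and endothelial cells stayed at or below 0.0143 UMIs per 10000. Other lineage markers were present: the smooth muscle markers ACTA2 and MYH11 summed to between 3.23 and 9.13 UMIs per 10000 over the clusters. The pericyte markers NOTCH3 and MCAM summed to between 0.0717 and 1.71. Cells were shallow in 5 clusters. Cluster 15 had a median of 647 UMIs per cell, cluster 7 had 1389, cluster 13 had 1631, cluster 14 had 2513.5 and cluster 10 had 5398.5, and the others had medians from 12929 to 23011.

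Ribosomal protein genes took between 22.3% and 30.9% of the UMIs in 14 clusters and 9.02% ± 0.052 (SD, n = 2 libraries) in cluster 7. The values in cluster 7 were 9.06% in replicate 1 and 8.98% in replicate 2. The highest share was that of cluster 13, with 30.8% and 31.0% in the 2 libraries, followed by cluster 10 with 29.8% and 30.3%. Clusters 14, 1 and 3 came next, at means of 28.6%, 28.2% and 26.8%. Clusters 8, 6, 5, 2, 4, 12, 9 and 11 followed between 26.4% and 24.2%, and cluster 15 stood at 22.3% ± 0.53. Of the 14 pairs of neighbours in this order, 1 had library values that overlapped, clusters 4 and 12 at 24.8% and 24.7%. The order also depended on the measure and on the cells used. The median cell of cluster 14 had 26.75%, below those of cluster 1 (28.05%) and cluster 3 (26.82%). Clusters 9 and 11 changed places, at 24.04% and 24.17%, without the 5% of cells with most UMIs. They did so too, at 24.38% and 24.40%, when cells were reassigned without the members. The clusters were drawn by the authors from the same counts, so the order over clusters is a description and was not tested. A share of UMIs gives the makeup of the captured RNA and not the number of ribosomal protein messages in a cell.

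**Figure D1:**
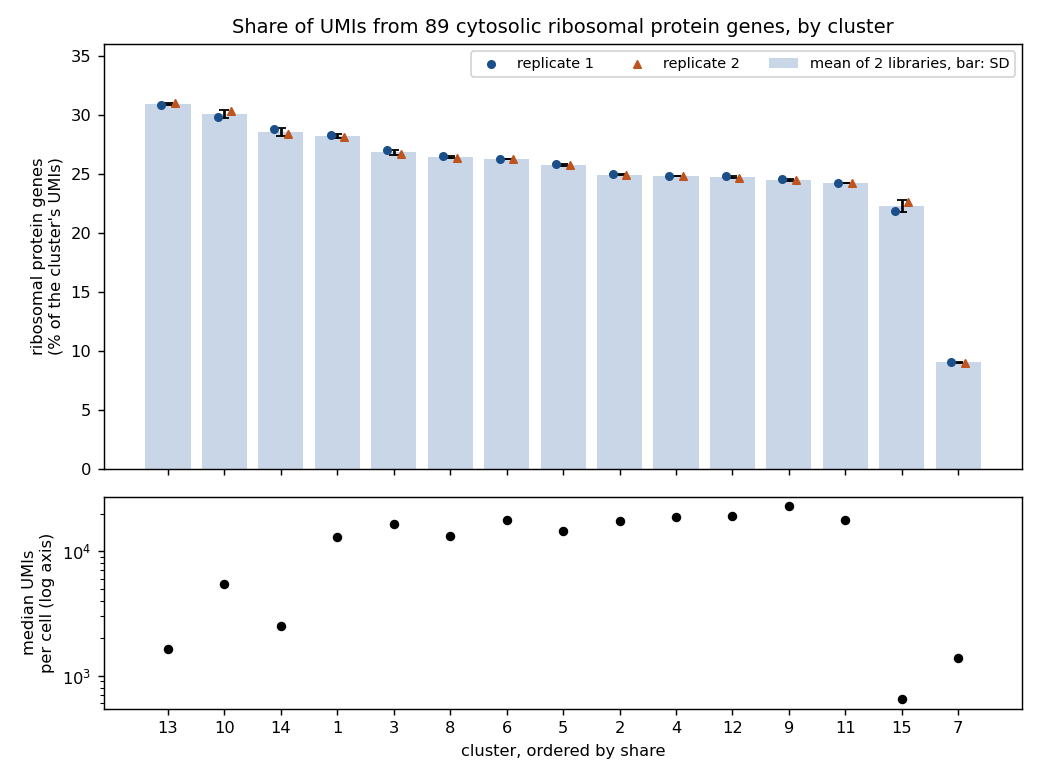
The upper panel gives the percent of each cluster's UMIs that came from the 89 ribosomal protein genes (bars, mean of 2 libraries; error bars, SD; points, replicates 1 and 2), and the lower panel gives the median UMIs per cell on a log axis. Clusters run from the highest share, 30.9% in cluster 13, to the lowest, 9.02% in cluster 7, and both of these clusters are shallow.

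The low share of cluster 7 was not limited to a few of its cells. Among its 1298 cells the median was 9.29%, with the 5th percentile at 6.19% and the 95th at 14.2%, and this 95th percentile lay below the 5th percentile of all other clusters, the lowest of which was 15.1% in cluster 15. Within cluster 7, cells with fewer UMIs than the cluster's median had a median share of 10.4%, and the deeper cells one of 8.20%. Pearson's r between log2 UMIs and the share over its cells was -0.51. In the other clusters this r lay between 0.0345 and 0.54, with the highest value in cluster 14, where the shallower cells had a median of 25.3% and the deeper cells one of 28.5%. Over the 15 clusters, r between the log2 of the median UMIs per cell and the mean share was 0.28. This r includes cluster 7, which is shallow and has the lowest share, and no r without it was computed. The highest shares were those of clusters 13, 10 and 14, which are shallow too. These are descriptions over cells and clusters of the same libraries, and the part of depth in the order of the clusters was not tested.

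RPS12, a small subunit protein, had the most UMIs, with 103 per 10000 in replicate 1 and 98.7 in replicate 2. RPLP0, the base of the stalk, followed with 80.5 and 77.4. RPS2, RPS18 and RPLP1 were among the next, at means between 58 and 68, and the 6 genes with most UMIs made up 16.8% of the ribosomal protein UMIs. A UMI stands for a captured molecule whatever its length, so these values compare molecules captured and not reads per length. In all, 78 genes were at 1 UMI per 10000 or more over all cells, and 71 of them at 10 or more.

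Most members varied together over the 15 clusters. For each gene with at least 20 UMIs in every cluster, the log2 level was set against that of the sum of the other members. The median Pearson's r was 0.98 over the 78 genes, and 66 of them had an r of 0.9 or more. Among the highest were RPL32 at 0.998 and RPLP2 at 0.997. RPL32, a large subunit protein, had 12.2 and 12.7 UMIs per 10000 in cluster 7 in replicates 1 and 2, and 59.9 and 62.6 in cluster 13. Cluster 7 was the lowest cluster of 75 of the 78 genes, and the highest was cluster 13 for 30, cluster 14 for 17, cluster 10 for 16 and cluster 1 for 10. Without cluster 7, a choice made after seeing the data, the median r was 0.84 and 22 genes had an r of 0.9 or more. Without clusters 7, 13, 14 and 15, the 4 shallowest and likewise chosen later, the median was 0.87 with 32 such genes. The points of each r are clusters of the same 2 libraries.

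**Figure D2:**
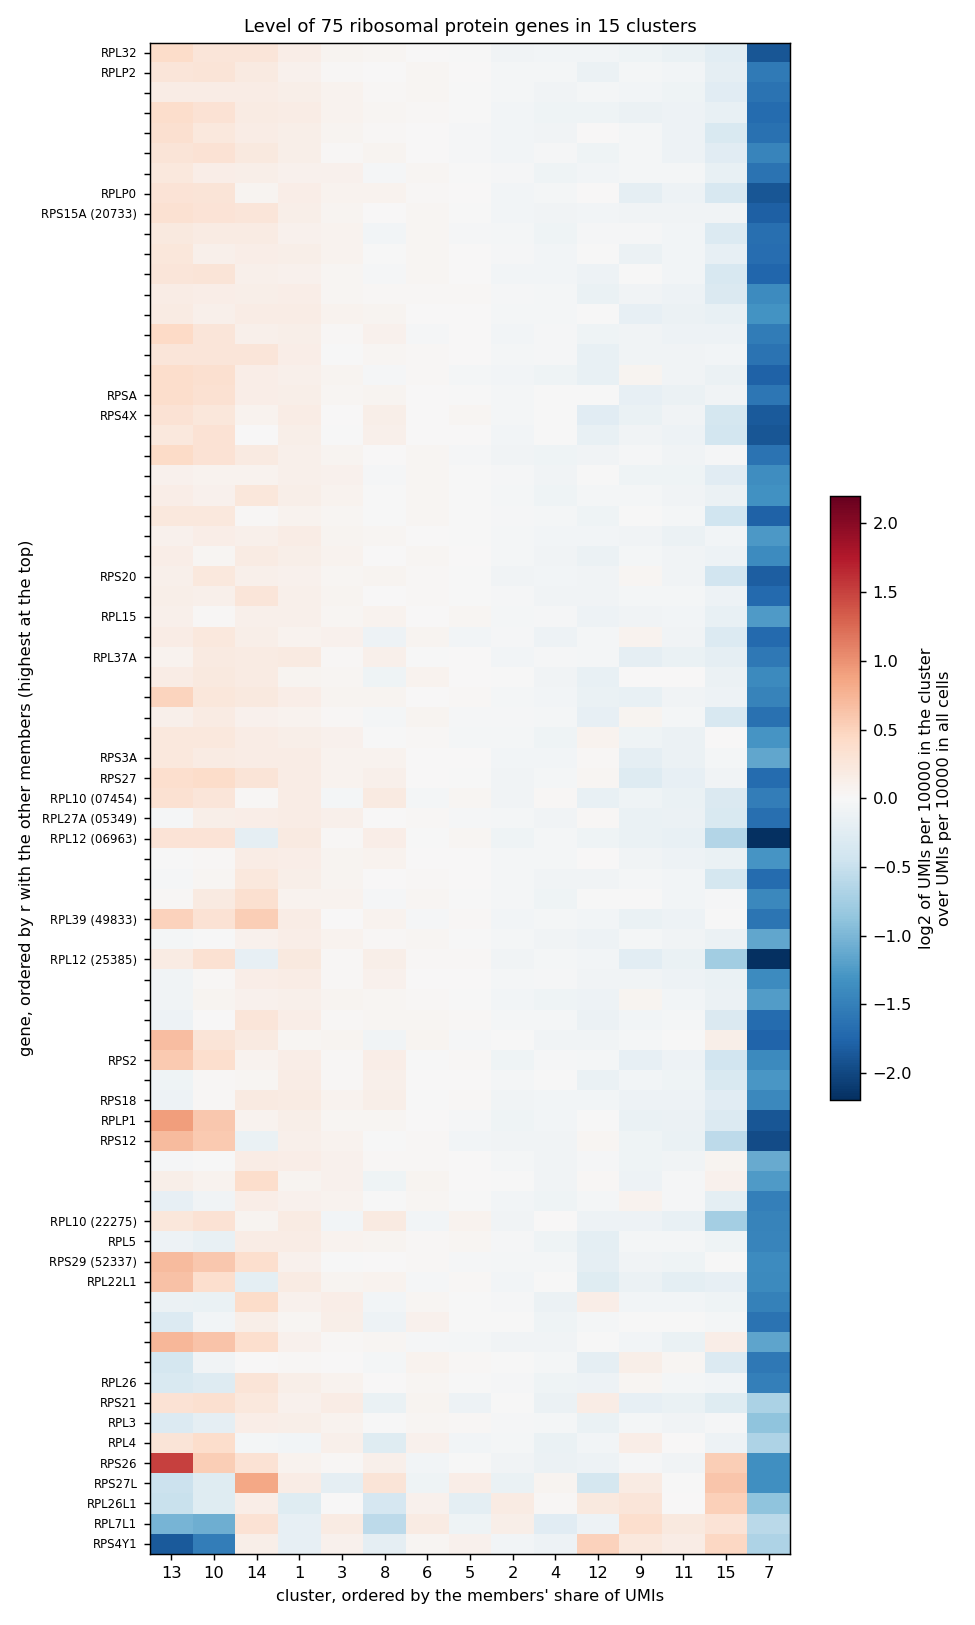
Each row is a ribosomal protein gene with at least 20 UMIs in every cluster (75 of 78 such genes, ordered by r with the other members, highest at the top), each column a cluster in order of share, and the colour the log2 ratio of its level in the cluster to its level in all cells. Genes described in the text are labelled, with the end of the Ensembl identifier where several genes share a symbol. The column of cluster 7 is blue for nearly all rows, and RPS4Y1 and RPL7L1 are lowest in clusters 13 and 10, where the genes at the top of the plot are high.

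The pool, meaning the UMIs of all 89 genes, was divided in nearly the same way in most clusters. The highest share of the pool that a gene took in a cluster was a median of 1.36 times its lowest, while its level per 10000 UMIs varied by a median of 3.66 times. For 53 of the 78 genes the range of pool share was under 1.5 times, and for 9 it was over 2 times. Among the widest ranges were those of RPS4Y1 (7.72), RPL7L1 (4.69), RPS27L (2.92), RPL26L1 (2.79) and RPS26 (2.51), and these 5 genes were also among the 6 with the lowest r with the other members. Without cluster 7 the same 5 genes, and no others, had a range over 2 times.

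RPS26, a small subunit protein, was highest in cluster 13, with 40.7 and 40.8 UMIs per 10000 against 21.8 and 20.6 in cluster 10 and 15.4 and 15.3 in cluster 1. It took 1.32% of the pool in cluster 13 in each library and 0.940% and 0.941% in cluster 15. In the 11 clusters other than 7, 13, 14 and 15 its range of pool share was 1.34 times and its r was 0.87, against 2.51 times and 0.77 over all 15.

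The other 4 genes with a wide range are paralogues. RPS4Y1 encodes a form of the small subunit protein RPS4X, and it was highest in cluster 12, the cluster with most UMIs of the myocyte markers MYOG, MYH3, MYMK and MYL1. It had 4.78 and 4.67 UMIs per 10000 there and 0.838 and 1.04 in cluster 13, its lowest. RPS4X ran the other way, with 23.4 and 22.0 in cluster 12 and 34.3 and 32.6 in cluster 13. Over the 14 clusters without cluster 7 the r of RPS4Y1 with the other members was -0.80.

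RPL7L1, the counterpart of a yeast factor that assembles the large subunit, was highest in cluster 9, with 3.12 and 3.05 UMIs per 10000, and lowest in cluster 10, with 1.19 and 1.09. Without cluster 7 its r was -0.68. RPL26L1, a close copy of the large subunit protein RPL26, had an r of -0.76 without cluster 7. It had 2.10 and 3.23 UMIs per 10000 in cluster 15, its highest, from 20 and 40 UMIs, so the libraries of that cluster were far apart, and 1.38 and 1.33 in cluster 13. RPS27L, a paralogue of RPS27 known as a p53 target, was highest in cluster 14, with 8.31 and 7.72 UMIs per 10000, against 3.25 and 3.13 in cluster 13.

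RPL22L1, the paralogue of RPL22, followed the group more closely, with an r of 0.93, or 0.78 without cluster 7, and was highest in cluster 13 with 10.6 and 10.5 UMIs per 10000. RPL3L, the form of RPL3 found in mature muscle, had 82 UMIs in all cells, 5 and 2 of them in cluster 12 in replicates 1 and 2, while RPL3 itself had between 14.8 and 30.2 UMIs per 10000 on average in every cluster.

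**Figure D3:**
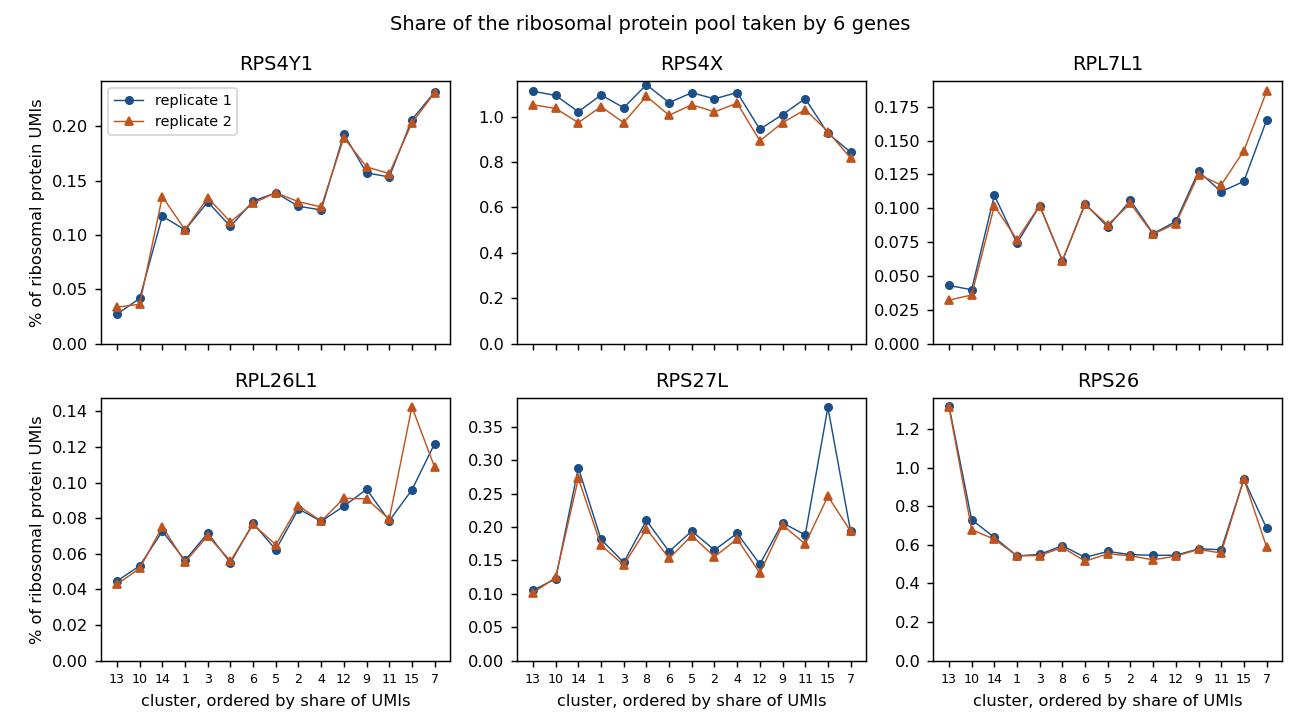
Percent of all ribosomal protein UMIs taken by 6 genes in each of the 15 clusters, in replicate 1 (circles) and replicate 2 (triangles), with clusters in order of ribosomal protein share and each vertical axis starting at 0. RPS26 peaks in cluster 13 at 1.32% in both libraries, and the share of RPS4Y1 is lowest in clusters 13 and 10, while that of RPS4X is 1.11% and 1.05% in cluster 13 and 0.944% and 0.893% in cluster 12.

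The balance between the subunits varied less than the total. Small subunit genes made up 46.7% of the pool in cluster 7 and between 46.5% and 48.7% in the other 14 clusters. Large subunit genes other than the stalk made up 47.7% in cluster 7, the highest value, and 43.1% in cluster 13, the lowest. The 3 stalk genes took 5.58% ± 0.062 (SD, n = 2) of the pool in cluster 7 and 8.19% ± 0.22 in cluster 13. RPLP1, an acidic stalk protein, had 15.7 and 15.9 UMIs per 10000 in cluster 7 and 112 and 107 in cluster 13.

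For 5 pairs of clusters the UMI sums of both libraries were compared, 2 sums against 2. The clusters were drawn from these same counts, members included, and the p-values below take no account of that. Each gene was tested against all UMIs after TMM scaling, and again with the summed ribosomal protein UMIs as the library size, which asks whether a gene changed its share of the pool. On this second scale, genes outside the pool rise together where the members take a smaller share of all UMIs. The shares of all genes called on it largely follow from the scaling, so the members' counts cannot be read against them. A gene is called at an adjusted p under 0.05, from the quasi-likelihood test of edgeR with p-values adjusted over all genes tested (Benjamini-Hochberg), and a log2 fold change of the fit is given with its standard error (SE). Fold changes against all UMIs include the TMM scaling, so they can differ from the ratio of the plain levels printed beside them. Since both sums of a pair come from the same libraries, the count with the library as a block is also given where it moves the result. Shares of all genes called are those of the main fit. Counts from the blocked fit and the other alternatives have no such share beside them, so they cannot be set against all genes.

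Cluster 7 against cluster 9 asks how the clusters with the highest summed levels of the fibro-adipogenic progenitor markers PDGFRA, PPARG and ZNF423 differ. These markers summed to 1.67 UMIs per 10000 in cluster 7 and 1.99 in cluster 9. Most of each sum was PDGFRA, at 1.48 and 1.58, while PPARG was at 0.0868 and 0.288 and ZNF423 at 0.101 and 0.125. Of 81 ribosomal protein genes tested, 79 were lower in cluster 7, where 29.9% of all genes tested were lower, and 0 were higher, where 26.6% of all genes were. Since most members have many UMIs, these shares do not compare genes of like depth. Every fitted log2 fold change of a member was below 0, so none was higher at an unadjusted p either, and DESeq2 also called 79 lower and 0 higher. The median log2 fold change of the members was -1.95 and that of all genes -0.05. Without TMM these were -1.44 and 0.45, so the gap between them was -1.90 with TMM and -1.89 without it. The plain levels were lower in both libraries for 80 of the 81.

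The largest falls were those of both genes named RPL12, a protein at the base of the stalk, and of RPS12 and RPS20, small subunit proteins. RPS12 had 26.3 and 25.2 UMIs per 10000 in cluster 7 and 96.5 and 92.0 in cluster 9, a log2 fold change after TMM of -2.38 (SE 0.061, adjusted p = 3.4e-06). The main RPL12 gene had 8.30 and 7.52 against 33.7 and 30.9, a log2 fold change after TMM of -2.54. In neither gene did the values of the clusters overlap.

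Within the pool, 16 genes took a larger share in cluster 7, where 84.1% of all genes tested were higher on this scale, and 19 a smaller one, where 0.695% of all genes were lower and 84.8% changed in either direction. The members took 9.02% of UMIs in cluster 7 and 24.5% in cluster 9, so most other genes rise on this scale by its construction. The blocked counts were 21 and 22, a single fit of all 15 clusters gave 26 and 29, and without cells under 2000 UMIs 11 gained and 11 lost. Among the largest gains were those of RPS21 of the small subunit, with 1.45% and 1.36% of the pool against 0.703% and 0.778%, at a log2 fold change of 0.93, and of RPL4 of the large subunit at 0.63. RPL3, RPS4Y1, RPS3A and RPL7L1 were also among the genes with a larger share. Both RPL12 genes, RPS12 and RPS20 lost most, at -0.60, -0.59, -0.43 and -0.41, and the stalk genes RPLP1 and RPLP0 lost as well. The counts of the members by subunit were 8 higher and 8 lower for the small subunit, and 8 and 9 for the large subunit without the stalk.

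Other genes of translation also fell in cluster 7 when tested against all UMIs, where 29.9% of all genes were lower and 26.6% higher. Of 75 mitochondrial ribosome genes tested, 74 were lower, with a median log2 fold change of -1.55, and 63 without TMM. Of 41 translation factors, 34 were lower and 2 were higher, with a median of -1.14. EIF5A, an elongation factor, had 4.96 and 4.58 UMIs per 10000 against 14.4 and 13.4, and EIF5B, which joins the subunits at initiation, was higher with 6.95 and 5.30 against 2.44 and 2.13. Of 60 ribosome biogenesis genes, which process ribosomal RNA and assemble the subunits, 35 were lower and 5 higher with TMM, and 14 and 18 without it, so their direction depended on the scaling. TAF1D, a factor of RNA polymerase I, was the highest of them at a log2 fold change of 1.67 (SE 0.11). The cells of cluster 7 had a median of 1389 UMIs and those of cluster 9 one of 23011. The myocyte markers MYOG, MYH3, MYMK and MYL1 summed to 7.24 UMIs per 10000 in cluster 7 and 0.42 in cluster 9, the cell cycle markers to 17.8 and 12.3, and the pericyte markers NOTCH3 and MCAM to 1.71, their highest, and 0.215. MCAM had 2 and 1 UMIs in cluster 7, so this sum was nearly all NOTCH3 (1.69), which had UMIs in every cluster and a level of 0.793 in cluster 13. The part of depth and of any other cells in the results was not tested.

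Cluster 2 against cluster 1 compares a cluster with many UMIs of cell cycle markers with one that has few, both named myoblasts by the study. TOP2A, MKI67, CDK1, CCNB1, PCNA and MCM5 summed to 22.0 UMIs per 10000 in cluster 2 and 1.99 in cluster 1. Of 82 ribosomal protein genes tested, 63 were lower in cluster 2, where 19.3% of all genes were lower, and 2 were higher, where 22.7% were higher. Most members have many UMIs, so small changes can be called in them, and these shares do not compare genes of like depth. The median log2 fold change was -0.23, against 0.01 for all genes. Levels were lower in both libraries for 75 of the 82, and the blocked fit called 77 lower. Leaving out replicate 1 left 47 lower and leaving out replicate 2 left 41. Members whose libraries differed by most, such as RPSA with 34.3 and 42.7 UMIs per 10000 in cluster 2 against 38.4 and 47.8 in cluster 1, were lower in both libraries but were not called without the block.

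RPS18 of the small subunit had 59.7 and 57.2 UMIs per 10000 in cluster 2 and 71.9 and 68.2 in cluster 1, a log2 fold change of -0.31 (SE 0.044, adjusted p = 0.00141). RPS27L fell from 5.13 and 4.85 to 4.13 and 3.87, the largest fall of a called member at -0.37. Both genes that rose are paralogues. RPL26L1 had 2.13 and 2.17 UMIs per 10000 in cluster 2 and 1.59 and 1.56 in cluster 1, a log2 fold change of 0.40 (SE 0.041), while RPL7L1 had 2.64 and 2.58 against 2.10 and 2.16. All 3 stalk genes were lower, with a median of -0.27.

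Within the pool, 11 genes took a larger share in cluster 2, where 42.8% of all genes were higher on this scale, and RPS27L a smaller one, where 8.32% were lower and 51.1% changed in either direction. The largest gains were those of RPL26L1 at 0.62, RPL7L1 at 0.47 and RPS4Y1 at 0.30. With the block, 32 genes gained and 28 lost, but no share of all genes is given for that fit, so these counts are no result about the members.

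The genes that build the ribosome moved the other way between these clusters. Against all UMIs, 22.7% of all genes were higher in cluster 2 and 19.3% lower. Of the 60 ribosome biogenesis genes, 32 were higher in cluster 2 and 2 lower, and the sum rose from 56.1 and 55.8 UMIs per 10000 to 71.0 and 70.6. LYAR, a nucleolar protein, had 1.15 and 1.11 UMIs per 10000 against 0.448 and 0.442, the highest of the list at a log2 fold change of 1.29 (SE 0.05). Of 76 mitochondrial ribosome genes, 40 were higher and 6 lower. Of the 41 genes listed as translation factors, 9 were higher and 21 lower, or 11 and 13 without TMM. The list also holds TPT1, a translationally controlled protein and not a translation factor proper, which fell from 43.8 and 47.0 UMIs per 10000 to 33.8 and 36.1. The directions of the members and of the biogenesis and mitochondrial lists were the same without TMM.

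Cluster 3 against cluster 1 compares a cluster with more UMIs of the myocyte markers, 8.58 per 10000, with one that has few, 1.40 per 10000. Of 82 ribosomal protein genes, 4 were higher in cluster 3 and 2 lower, where 21.1% and 19.1% of all genes were, and 76 were not called. The plain levels were lower in both libraries for 68 of the 82 and higher in both for 12. The median was -0.03, and that of all genes 0.00. With the block 11 were higher and 28 lower at the same median of -0.03, and without TMM 4 were higher and 12 lower. The share of all genes called in these fits is not given, so these counts are no result about the members. The 4 that rose were RPL7L1 at 0.40, RPL26L1 at 0.31, RPS4Y1 at 0.30 and RPL4 at 0.21, and those that fell were RPS27L at -0.32 and the main RPL10 gene at -0.18. RPL7L1 had 2.75 and 2.72 UMIs per 10000 in cluster 3 and 2.10 and 2.16 in cluster 1. RPL10, a late addition to the large subunit, had 56.0 and 54.6 against 64.4 and 64.1.

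Within the pool 9 genes gained and 2 lost in cluster 3, where 23.9% and 17.0% of all genes did (40.9% in either direction), and the blocked fit gave 23 and 23. Against all UMIs, where 21.1% of all genes were higher in cluster 3 and 19.1% lower, the biogenesis list rose here too. Of its 60 genes, 48 were higher and 2 lower, with a median of 0.46, and the lower ones were UTP14A, a factor of small subunit processing, and MYC, a transcription factor that drives ribosome production. NOLC1, a nucleolar chaperone, rose most at 0.94 (SE 0.043). Of the mitochondrial ribosome genes, 47 of 76 were higher and 1 lower, with MRPL15 at 1.22 and 1.23 UMIs per 10000 against 0.667 and 0.652, and of the translation factors 16 of 41 were higher and 5 lower.

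Cluster 12 against cluster 3 follows the myocyte markers further, from 8.58 to 38.7 UMIs per 10000. Of 82 ribosomal protein genes, 2 were higher in cluster 12 and 2 lower, where 18.2% and 15.6% of all genes were. The plain levels were lower in both libraries for 76 of the 82. With the block 10 were higher and 28 lower, and without TMM 2 were higher and 39 lower. No share of all genes is given for these fits, so these counts are no result about the members. The medians of the members and of all genes were -0.03 and -0.02 with TMM and both -0.12 without it, so the gap between them was -0.01 under either scaling. RPS4Y1 had 4.78 and 4.67 UMIs per 10000 in cluster 12 against 3.52 and 3.58, a log2 fold change of 0.51 (SE 0.05, adjusted p = 0.000185), and its share of the pool rose by 0.53. RPL26L1 rose by 0.31. RPL7L1, which was higher in cluster 3 than in cluster 1, fell by 0.21 from cluster 3 to cluster 12, and RPL22L1 fell by 0.21 as well. Neither fall was called when a replicate was left out, and DESeq2 called fewer members lower than the main fit. The comparisons share the libraries of cluster 3.

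Within the pool 2 genes gained and 3 lost, where 19.3% and 14.2% of all genes did (33.6% in either direction), and the blocked fit gave 20 and 25. The third gene that lost was RPL5, which binds ribosomal RNA of the large subunit. Of the 60 biogenesis genes, tested against all UMIs, 39 were lower in cluster 12 and 3 higher, with a median of -0.37. In that fit 18.2% of all genes were higher and 15.6% lower. SDAD1, a factor for export of the large subunit, had 0.215 and 0.238 UMIs per 10000 against 0.531 and 0.499. Of the translation factors, 7 were lower and 2 higher, or 20 and 0 without TMM, and PABPC1, which binds the poly(A) tail, fell the most, from 11.7 and 11.6 UMIs per 10000 to 7.80 and 7.44. Of the mitochondrial ribosome genes, 12 of 76 were higher and 8 lower with TMM, and 6 and 17 without it. With TMM, the counts of translation factors and mitochondrial ribosome genes were near or under the shares of all genes. They are therefore no result about those lists.

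**Figure D4:**
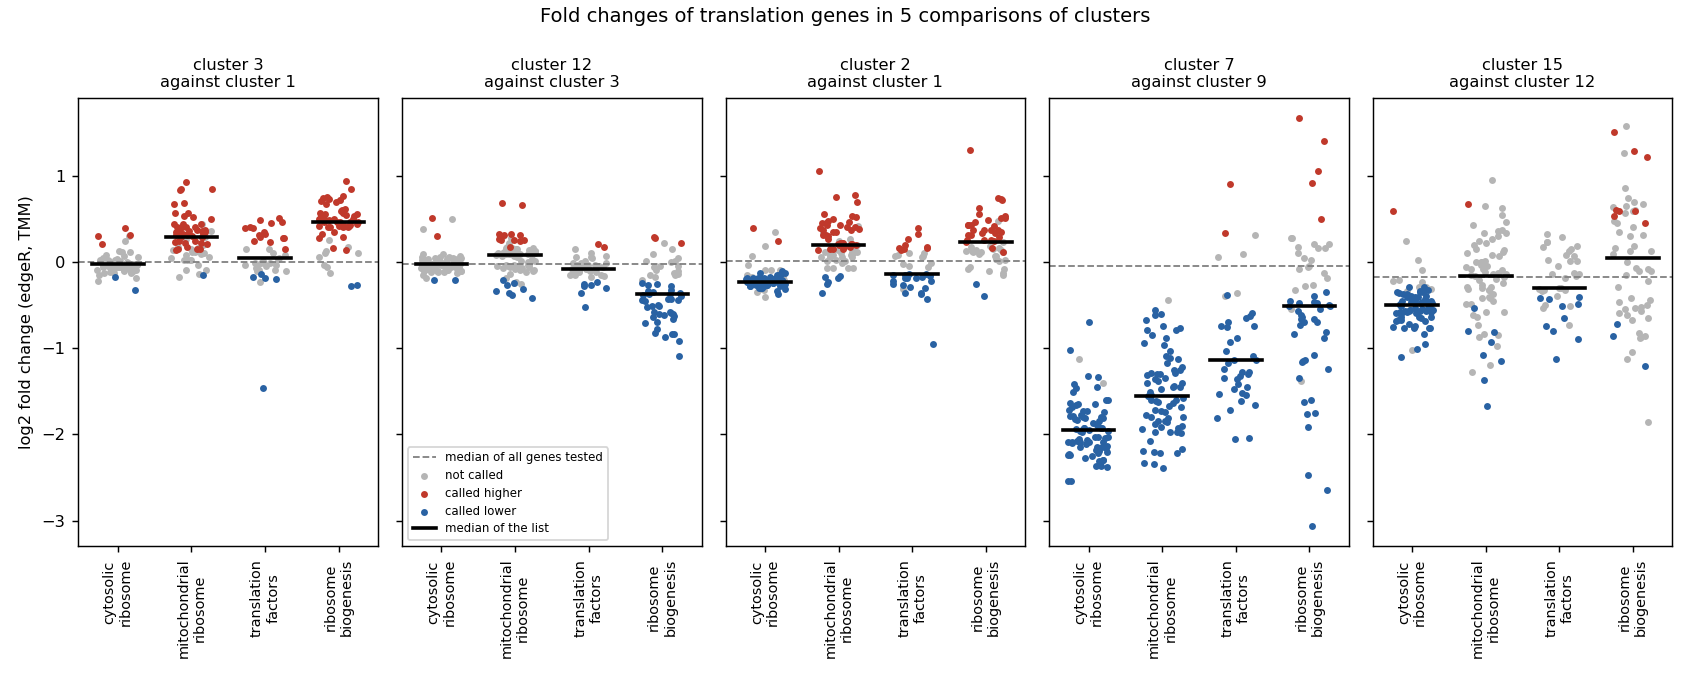
Log2 fold change (edgeR, TMM) of each gene of 4 lists in 5 comparisons of clusters; points are genes, red or blue where called higher or lower, black bars are the medians of the lists and the dashed line is the median of all genes tested. The cytosolic ribosomal proteins lie near the dashed line between clusters 3 and 1 and between 12 and 3, where biogenesis genes have medians of 0.46 and -0.37, and at a median of -1.95 between clusters 7 and 9.

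Cluster 15 against cluster 12 compares the shallowest cluster, which had 5.91 UMIs per 10000 of the myocyte markers, with cluster 12. Of 80 ribosomal protein genes, 69 were called, where 16.3% of all genes were. In counts simulated for this pair the test recovered 14% of 2-fold changes, against 88% for clusters 2 and 1. Most members have many UMIs, so these shares do not compare genes of like depth. In cluster 15 68 were lower, against 981 of 8915 genes in all, and 1 was higher, where 5.26% were. Without TMM, 18 were lower and 2 higher, and the plain levels were lower in both libraries for 48. The median of the members was -0.50 and that of all genes -0.17 with TMM, and -0.09 and 0.23 without it, so the gap was -0.32 under either scaling. Without a filter on low counts the members' median lay 0.07 above that of all genes, so the sign of the gap depended on which genes were tested. RPS12 had 66.3 and 69.1 UMIs per 10000 against 106 and 101, a log2 fold change after TMM of -1.01 (SE 0.097, adjusted p = 7.67e-07). The gene that rose was RPS27L, with 8.29 and 5.56 against 3.58 and 3.23, at 0.59 after TMM (SE 0.15). Within the pool 10 genes gained and 4 lost, where 13.9% and 4.17% of all genes did (18.1% in either direction), and RPS27L, RPS26 and RPL7L1 gained most at 1.14, 0.79 and 0.57. Cluster 15 held 317 cells with a median of 647 UMIs, and the part of depth was not tested. Leaving out replicate 1 left 44 members lower in place of 68.

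The libraries themselves differed for a few members in the same way in nearly every cluster. Over all cells, 6 of the 78 members at 1 UMI per 10000 or more were over 0.25 apart on the log2 scale, or 7.69%, against 1.95% of 1490 other genes at that level. RPSA, also known as a laminin receptor, had 35.3 UMIs per 10000 in replicate 1 and 44.1 in replicate 2, and was higher in replicate 2 in 15 of 15 clusters. RPL37A had 18.5 and 25.3, and RPS29 had 30.4 and 37.7, with replicate 2 higher in 15 clusters each. RPL15 was higher in replicate 1 in 15 clusters, at 34.0 and 27.4. The other members of this group were the lesser of the genes named RPL12 (4.83 and 6.39) and of those named RPL10 (1.21 and 2.34). Both libraries came from the same cells, so these differences are not between animals or cultures.

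**Figure D5:**
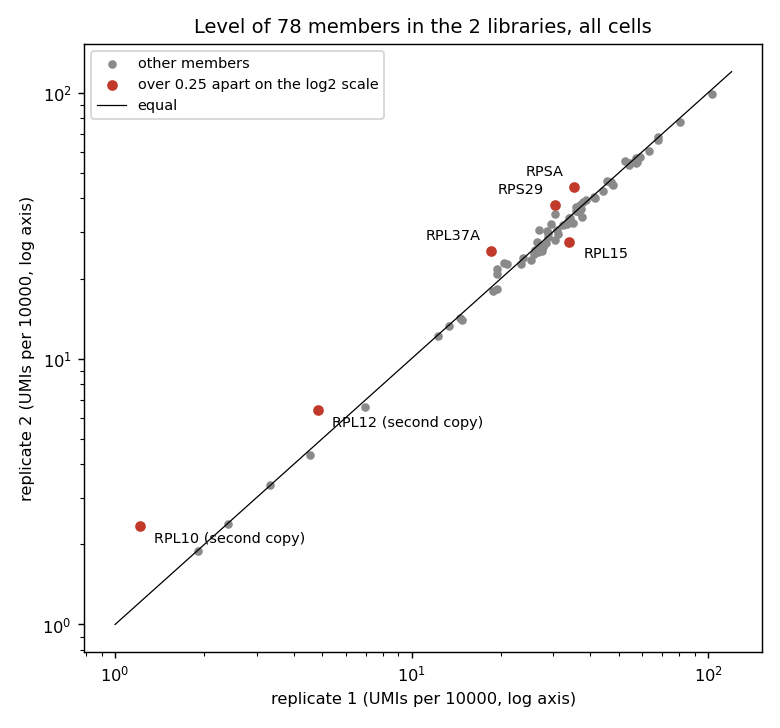
Level of 78 members in replicate 1 (horizontal axis) and replicate 2 (vertical axis), in UMIs per 10000 over all cells on log axes, with the line of equal levels. RPSA, RPS29, RPL37A and the lesser copies of RPL12 and RPL10 lie above the line and RPL15 below it, all over 0.25 apart on the log2 scale.

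Copies of a symbol were unequal. RPL12 was split between genes with 86.5% and 13.5% of its UMIs, RPL10 between 97.0% and 2.99%, and RPS15A, RPL27A, RPS29 and RPL39 each had over 97% in 1 gene. Reads of near-identical copies and pseudogenes cannot be told apart with certainty by the counting, so the values of the lesser copies and of close paralogues such as RPL26L1 are uncertain. Over the 15 clusters both RPL12 genes had an r of 0.97 with the other members.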

How the data were processed

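The 2 single-cell RNA libraries from the same cultured bovine satellite cells were analysed. According to the methods and the submitters' processing notes, Cell Ranger 3.0.2 was used by the authors to align reads to ARS-UCD1.2, count UMIs and merge both libraries, with reads thinned until each library had equal numbers mapped for every cell on average. Deposited counts are whole numbers of UMIs for 21867 features in 19096 cells. The authors also deposited averages per cluster for 16816 genes, which are pooled over the libraries and scaled to a common total, and their own log2 fold changes and p-values, which were not used. These averages convert to exact UMI sums, and 32 rounds of deduction from them gave the cluster of every cell, after which 0 of 252240 gene and cluster sums differed.

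UMIs were summed per gene, cluster and library with Python 3.11.15. Levels are UMIs per 10000, given as mean ± SD of 2 libraries. Sums were compared with edgeR 4.0.16 in R 4.3.3 (quasi-likelihood test, TMM, filterByExpr, Benjamini-Hochberg adjustment over all genes tested, threshold 0.05), which was tested on simulated data. It recovered 14% of simulated 2-fold changes for clusters 15 and 12, 50% for clusters 7 and 9, and from 81.5% to 90.5% for the other pairs. DESeq2 1.42.0, the library as a block and other alternatives were also run. With a replicate left out, all 15 clusters were fitted together, so those counts differ from the main ones by the model as well as by the replicate. The library number pairs the sums, since both clusters come from the same libraries: over all genes the log2 library ratios of the clusters compared had correlations from 0.18 to 0.51. Over the members alone the correlation was 0.57 for clusters 15 and 12 and from 0.88 to 0.99 for the other pairs. The main fit left this pairing out, and the blocked fit used it. Doublets were not called here.

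The members and the gene lists (translation factors, ribosome biogenesis, mitochondrial ribosome, cell type markers) were chosen with earlier results of these data known. Genes were named by rule: the 6 with most UMIs, paralogues with their parents, the 4 highest and 4 lowest called members of each comparison (3 and 3 within the pool), the 6 lowest and 3 highest r, the 6 widest pool shares, the 8 most similar other genes, and up to 3 highest and 3 lowest of each other list, of which the text gives some; a few named by this rule are not reported here. RPSA, RPL15, RPL37A, RPS29, RPS3A, UTP14A and MYC, among others outside this rule, were named after their values were seen. RefSeq genes of ARS-UCD2.0 were used only for names and neighbours.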

Additional observations from a re-analysis of the deposited data

How the results depend on the processing

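With the library as a replicate block, 11 members were higher and 28 lower in cluster 3 against cluster 1, 10 and 28 in cluster 12 against cluster 3, and 46, 45 and 60 changed within the pool between clusters 3 and 1, 12 and 3, and 2 and 1. It moved no other count of members by over 1.5 times. Without TMM, 12 members were lower between clusters 3 and 1, 39 between 12 and 3, and 18 lower and 2 higher between 15 and 12. With DESeq2 the counts were 1 lower between clusters 12 and 3 and 2 higher between 15 and 12. In a single fit of all 15 clusters, 4 were lower between 3 and 1, 7 between 12 and 3, 2 higher between 15 and 12, and 55 and 22 changed within the pool between 7 and 9 and between 15 and 12. Without a filter on low counts, 8 were lower between 12 and 3 and 0 higher between 15 and 12, where the median of the members lay 0.07 above that of all genes. Without cells under 2000 UMIs, 22 changed within the pool between 7 and 9, the shares of clusters 7 and 13 were 8.02% and 31.8%, and cluster 15 gave no value. With cells reassigned without the members, these shares were 9.08% and 31.1%. In this reassignment 85.1% of all cells kept their cluster, against 59.0% of the cells of cluster 14 and 54.6% of those of cluster 15. The share of all genes called is not given for these fits, so the counts cannot be set against all genes. The cause of these moves was not tested.

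Leaving out a replicate, with the lone sum assumed to vary like the others, gave 1 to 2 members lower and 5 to 5 changed within the pool between 3 and 1, 0 to 0 lower and 2 to 2 changed between 12 and 3, 1 to 2 higher, 41 to 47 lower and 4 to 4 changed between 2 and 1, and 44 to 54 lower and 9 to 11 changed between 15 and 12. Of 472 alternatives for 51 values of named members, 429 kept direction and call, 43 kept the direction and lost the call, 30 of them with a replicate left out, and 0 reversed. Clusters of few UMIs limit what can be called: the comparison with cluster 15 tested 8915 genes, that of clusters 2 and 1 tested 11494.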

Other observations

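FAU, which lies outside the rule and encodes a ubiquitin-like protein joined to a ribosomal protein, had 7.29 and 6.75 UMIs per 10000 in cluster 7 against 19.8 and 19.4 in cluster 9 and an r of 0.96 with the members' sum, or 0.47 without cluster 7. Over the 15 clusters the sum of the 41 genes listed as translation factors, TPT1 included, had an r of 0.94 with the members. That of 79 mitochondrial ribosome genes had one of 0.53, and that of 60 ribosome biogenesis genes one of -0.42. The translation factor sum was 222 UMIs per 10000 in cluster 7 and between 316 and 375 in the other clusters. In cluster 13, where the members were highest, it was 346, and no r without cluster 7 was computed for the lists. The biogenesis sum was 76.0 UMIs per 10000 in cluster 7, and its highest value was 80.6 in cluster 9.

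Of 1436 other genes at 1 UMI per 10000 or more with at least 20 UMIs in every cluster, 4.46% had an r of 0.9 or more with the members' sum, and the median was 0.0526. The 2 most similar were a gene without a name, ENSBTAG00000046394, at 0.996, and NPAS2, a transcription factor of the circadian clock, at 0.992. NPAS2 had 32.3 and 36.8 UMIs per 10000 over all cells in the 2 libraries. It had 8.76 and 9.96 in cluster 7 and 35.7 and 40.6 in cluster 13, and its r without cluster 7 was 0.91. Of the next 6 genes by this measure, VTI1B is the sole one with a name.

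The feature list names 73 of 79 core ribosomal protein genes, and no feature is called RPL17, RPL22, RPL23A, RPL31, RPL36A or RPL41. In RefSeq genes of another assembly, ARS-UCD2.0, the named genes on either side of RPL31 are NPAS2 and TBC1D8. TBC1D8 had 0.538 and 0.554 UMIs per 10000, and of the 10 named neighbours of RPL17, RPL22, RPL23A, RPL31 and RPL36A that the feature list holds, RAB34 beside RPL23A (2.03 and 2.10 UMIs per 10000, r 0.50) is the sole other at 1 or more. Whether molecules counted for NPAS2 come from RPL31 was not tested, since the counts hold no read positions.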
